A study of Cricetulus griseus with 4 samples.

Results

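The 8 genes described here code for MAP kinase pathway proteins and for transcription factors that respond to the pathway. They are the MAP kinase gene MAPK13, the MAP kinase kinase gene MAP2K4, the ERK-activated kinase gene RPS6KA1, the phosphatase gene DUSP5, the protein kinase C gene PRKCH, and the transcription regulator genes ETS2, FOSB and IER2. A probe belonged to the set when the array's gene annotation gave it 1 of these symbols and no other. This found 8 genes, each on 1 probe, of 347 genes named with 1 symbol and of 1152 probes in all. Each probe was spotted 2 times on an array. All 8 symbols are also gene symbols in the RefSeq annotation of the Chinese hamster, the species of the RNA, while the probe annotation lists human genes.

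The study asked whether gene expression differs between chromosomally stable and unstable clones of the same genetic background. Total RNA of the stable clone RT210B was in channel 1 of each of 4 two-channel arrays, and RNA of 2 unstable clones in equal quantities was in channel 2. Mixture 1 held LS12 and mixture 2 held Fe10-3, each with a second unstable clone whose name in the labels is made of digits alone, and each mixture was measured on 2 arrays. Each clone is 1 cell line, a mixture does not separate its 2 clones, and the labels do not say whether replicate arrays came from separate cultures, so p-values measure only the spread between arrays. The labels do not give the origin of the clones; by background knowledge they come from a Chinese hamster ovary line carrying a single human chromosome. No treatment is given in the labels for any array.

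MAP kinases are the last enzymes of relays in which 1 kinase activates the next. The ERK relay answers mainly to growth factors, and the JNK and p38 relays mainly to stress and cytokines. Their signals reach the nucleus through kinases such as the ribosomal S6 kinases and through ETS factors, switch on immediate early genes within minutes, and are ended by dual-specificity phosphatases.

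Each value is a log2 ratio of 1 channel to the other, with the median over all probes set to 0 on each array. A value of 1 lies 2-fold from the array's middle probe. The numerator of the ratio is not settled, because the sample titles put RT210B first, the descriptions put the unstable clones first, and the dyes are not stated. A positive value is therefore not read as higher in the stable or in the unstable cells. All arrays have the same channel assignment, so a difference between channels cannot be told apart from one between pools. The ratios were spread most widely on the arrays of mixture 1, with an SD over probes of 1.14 and 1.05, against 0.80 and 0.47 in mixture 2. Across probes, the 2 spots of a probe correlated at r = 0.725 to 0.819, which is a correlation across genes within an array.

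In mixture 1, all 8 genes had a positive mean, and RPS6KA1, ETS2 and PRKCH passed the test. In mixture 2, the means were positive for 4 genes and negative for 4, and none passed. Without centring, IER2 turned negative in mixture 1 and MAP2K4 and RPS6KA1 turned negative in mixture 2. Among probes with close duplicate spots, recentred, MAP2K4 (-0.0018) and FOSB (-0.058) turned negative in mixture 1. A gene passed when its p-value in limma, adjusted by Benjamini-Hochberg over all 1152 probes, was under 0.05. Of all probes 43.1% passed in mixture 1 and 24.4% passed on the positive side, so a passing gene was common on these arrays. The 3 of 8 and the 8 positive means are a description and not a result about the set. The median over the 8 genes was 0.61 in mixture 1, beside -0.03 over all probes, and -0.04 in mixture 2, beside 0.00 over all probes.

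**Figure D1:**
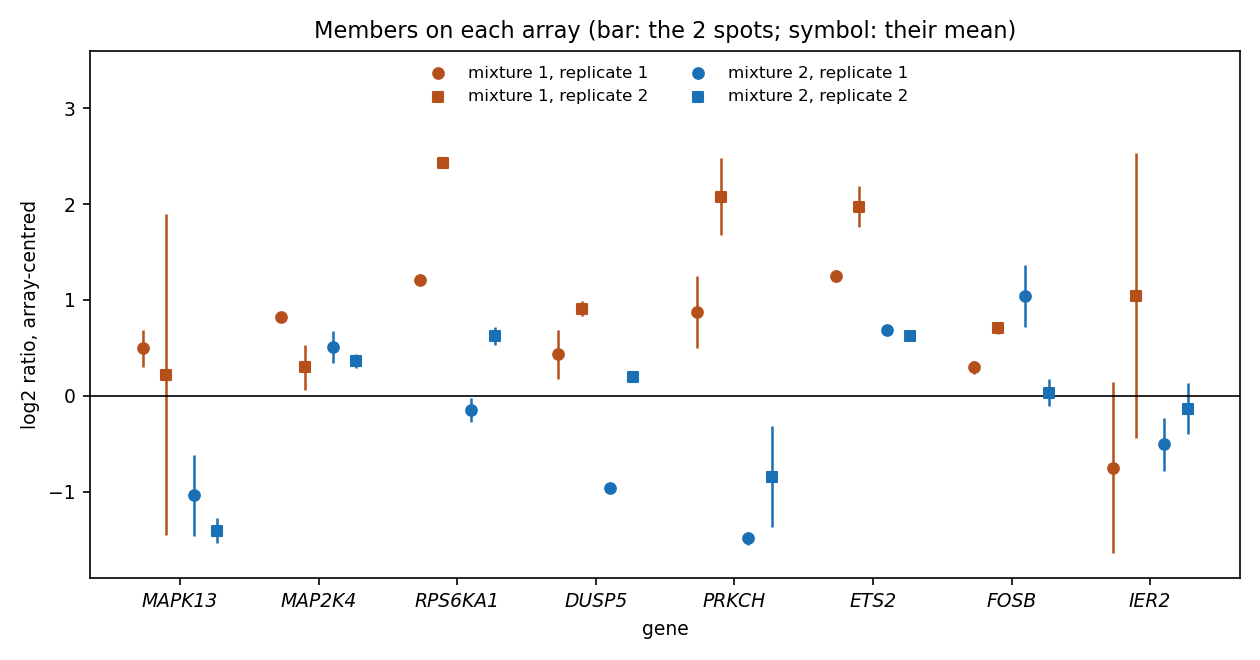
Log2 ratio of each of the 8 genes (horizontal axis) on each of the 4 arrays, centred on the array's median (vertical axis). Symbols are the mean of the 2 spots and bars join the 2 spots, with circles for replicate 1 and squares for replicate 2 of each mixture. ETS2 lies between 0.63 and 1.97 on all 4 arrays, while PRKCH lies above 0 on both arrays of mixture 1 and below 0 on both arrays of mixture 2.

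RPS6KA1 (Entrez Gene 6195) encodes the ribosomal S6 kinase RSK1, which ERK activates and which phosphorylates transcription factors and translation proteins. Its log2 ratio was 1.21 and 2.43 on the mixture 1 arrays, and -0.15 and 0.63 on the mixture 2 arrays. Both arrays of mixture 1 were above both arrays of mixture 2. On replicate 2 of mixture 1 it had the 8th highest ratio of the 1152 probes, and its spots there were 2.42 and 2.45. The mean in mixture 1 was 1.82 (SE 0.374, n = 2 arrays; limma adjusted p = 0.00902), or 3.54-fold from the middle probe. Each SE here is limma's, pooled over all 4 arrays and drawn toward the spread of all probes. It is therefore the same for both mixtures and not the spread of 1 mixture. In mixture 2 the mean was 0.24 (SE 0.374; limma adjusted p = 0.731). The difference between the mixtures was 1.58 (95% interval 0.38 to 2.79) and did not pass (limma adjusted p = 0.136). Over both mixtures the mean was 1.03 (SE 0.265, n = 4 arrays; limma adjusted p = 0.0171). Of all probes 38.7% passed in that comparison, 21.7% on the positive side.

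The RPS6KA1 value rested in part on single arrays. Without replicate 2 of mixture 1 its mixture 1 value was 1.21 and still passed (limma). Without replicate 2 of mixture 2 the mean of both mixtures was 0.84 and no longer passed (limma adjusted p = 0.0537). After a trend of ratios on the disagreement of duplicate spots was removed, it lay at 1.27 in mixture 1 (limma adjusted p = 0.053) and at 0.71 over both (0.112). Among probes with close duplicate spots, recentred, its mean over both was 0.57 and did not pass (limma adjusted p = 0.109). With 1 array left out, the difference between the mixtures ranged from 0.97 to 2.20. A mixture left with 1 array was taken to vary like the other, so no call is given for that difference.

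ETS2 (Entrez Gene 2114) encodes an ETS-domain transcription factor that is phosphorylated by ERK. Its ratio was 1.25 and 1.97 on the mixture 1 arrays, and 0.69 and 0.63 on the mixture 2 arrays. It was positive on all 4 arrays, and higher on both arrays of mixture 1 than on either of mixture 2. The 2 arrays of mixture 2 differed by only 0.06, and its spots there by 0.02 and 0.05. The mean was 1.61 in mixture 1 (SE 0.308, n = 2 arrays; limma adjusted p = 0.00832), which is 3.06-fold. In mixture 2 it was 0.66 (SE 0.308; limma adjusted p = 0.26), and over both mixtures 1.14 (SE 0.218, n = 4 arrays; limma adjusted p = 0.00952). The mixtures differed by 0.95 (95% interval -0.04 to 1.94; limma adjusted p = 0.219). ETS2 passed in mixture 1 under each of the 12 alternative settings, with values of 1.05 to 1.97. Over both mixtures it passed in 10 of 11, and not with the duplicate-spot trend removed (0.90; limma adjusted p = 0.0596). In mixture 2 it passed only after scaling to 1 spread (0.93, limma adjusted p = 0.0482). The settings are not independent: for mixture 1, leaving out either array of mixture 2 and fitting mixture 1 alone are the same fit.

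PRKCH (Entrez Gene 5583) encodes protein kinase C eta, a kinase activated by diacylglycerol that can feed into the ERK relay. Its ratio was 0.87 and 2.08 on the mixture 1 arrays, and -1.49 and -0.84 on the mixture 2 arrays. The gap between the nearest arrays of the 2 mixtures was 1.72, the widest among the 8 genes. The mean was 1.48 in mixture 1 (SE 0.365, n = 2 arrays; limma adjusted p = 0.014) and -1.17 in mixture 2 (SE 0.365; limma adjusted p = 0.249). Their difference of 2.64 (95% interval 1.47 to 3.82) corresponds to 6.24-fold and ranked 6th by p among all probes. It did not pass in limma (adjusted p = 0.0732, the smallest of any probe in that comparison). With the means on opposite sides, the mean of both was 0.15 (SE 0.258).

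The PRKCH calls changed with the setting. Without replicate 2 of mixture 1, its mixture 1 value fell to 0.87. With 1 array left out, the difference between the mixtures ranged from 2.04 to 3.24. Such a fit leaves a mixture with 1 array, which is taken to vary like the other. The call of the difference was not the same in all of these fits and is not weighed here. The difference passed without centring (2.96, limma adjusted p = 0.0245), as did 4.1% of probes. In a fit with a replicate block it passed (2.64, limma adjusted p = 0.0246), as did 3.1% of probes. The replicate numbers were not found to pair the arrays. It did not pass with arrays scaled to 1 spread, spots kept apart or the duplicate-spot trend removed (limma adjusted p = 0.0575 to 0.0681). Under robust eBayes it did not pass either (limma adjusted p = 0.0754). Its spots were far apart on replicate 2 of mixture 2, at -1.37 and -0.32, a difference at least as wide as that of 97.9% of probes there. PRKCH, MAPK13 and IER2 were not among the probes kept with close duplicate spots, so that setting gives no value for them.

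**Figure D2:**
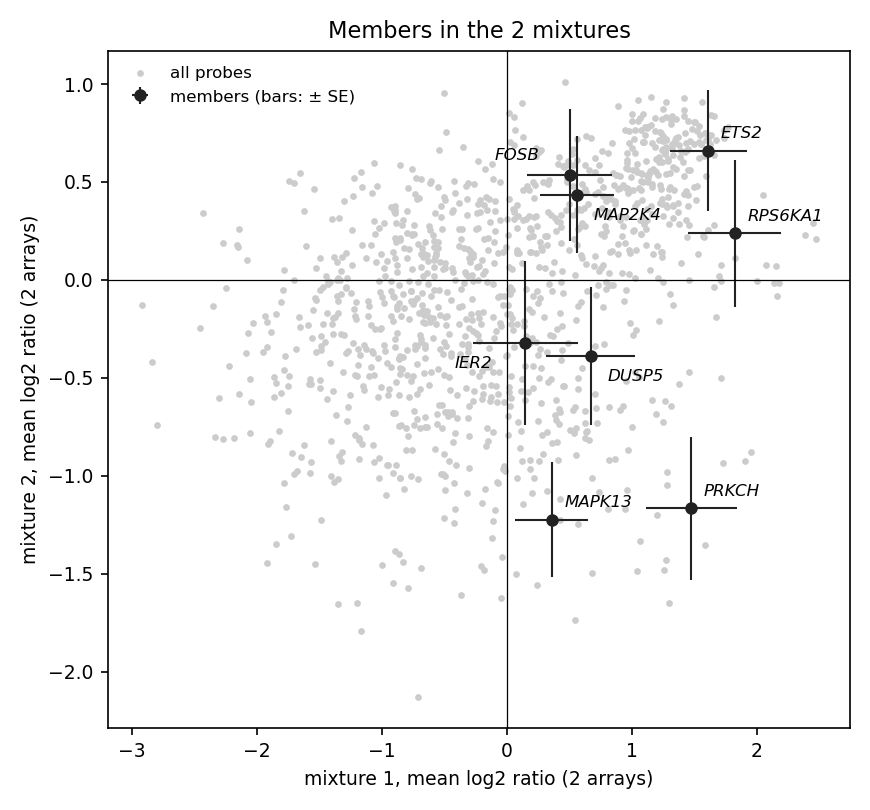
Mean log2 ratio in mixture 1 (horizontal axis) and mixture 2 (vertical axis), each over 2 arrays, for all 1152 probes (grey) and the 8 genes (black, with bars of 1 SE from limma). RPS6KA1 and ETS2 lie far to the right and above 0, while PRKCH lies to the right at 1.48 but below 0 at -1.17.

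MAPK13 (Entrez Gene 5603) encodes p38 delta, a stress-activated MAP kinase. Its ratio was -1.04 and -1.41 on the mixture 2 arrays, and 0.50 and 0.22 on the mixture 1 arrays. On replicate 2 of mixture 2 it had the 8th lowest ratio of the 1152 probes. It was the only 1 of the 8 genes that lay at least 2-fold from the middle with 1 sign on both arrays of mixture 2, where 1.91% of probes did. The mean was -1.22 in mixture 2 (SE 0.293, n = 2 arrays; limma adjusted p = 0.245, unadjusted p = 0.0026), or 2.33-fold. In mixture 1 it was 0.36 (SE 0.293; limma adjusted p = 0.341). The mixtures differed by 1.58 (95% interval 0.64 to 2.52; limma adjusted p = 0.0938), and the mean of both was -0.43 (SE 0.207; limma adjusted p = 0.128).

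The 2 spots of MAPK13 disagreed on replicate 2 of mixture 1. They lay at -1.45 and 1.89, and this difference of 3.35 was at least as wide as that of 99.8% of probes on the array. On replicate 1 of mixture 1 they lay at 0.30 and 0.69, a difference at least as wide as that of 53.2% of probes. The mean of 0.22 on replicate 2 is therefore a midpoint between opposite readings. On the arrays of mixture 2 both spots were negative each time, at -0.62 and -1.46 and at -1.54 and -1.28.

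No probe passed in mixture 2 with both mixtures in the fit (0% of 1152 in limma), while 19.6% had an unadjusted p under 0.05, MAPK13 and PRKCH among them. Fitted on the 2 arrays of mixture 2 alone, or with either array of mixture 1 left out, 9.81% of probes passed, and both genes did (limma adjusted p = 0.00445 for MAPK13 and 0.0075 for PRKCH). Both also passed without centring, at -1.71 and -1.65 (limma adjusted p = 0.0198 and 0.0213). There 17.9% of probes passed, all on the negative side. With the arrays scaled to 1 spread they passed at -1.82 and -1.56 (limma adjusted p = 0.0182 and 0.0185), as did 22.7% of probes. Neither passed with an array of mixture 2 left out. Neither passed with the replicate block, spots kept apart, the duplicate-spot trend removed or robust eBayes (limma adjusted p = 0.131 to 0.621). MAPK13 further passed for the difference between mixtures on uncentred values (1.90, limma adjusted p = 0.0426), as did 4.1% of probes. On centred values without replicate 2 of mixture 1, the MAPK13 difference was 1.72. That fit leaves mixture 1 with 1 array, so its call is not given. Over both mixtures MAPK13 passed without centring (-0.76, limma adjusted p = 0.02), as did 48.4% of probes. With the scaled arrays it passed over both (-0.78, limma adjusted p = 0.0337), as did 39.9% of probes.

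MAP2K4 (Entrez Gene 6416) encodes MKK4, a kinase that activates JNK and p38. Its ratio was 0.82 and 0.30 on the mixture 1 arrays, and 0.51 and 0.36 on the mixture 2 arrays. The mixtures overlapped, and all 4 arrays were positive. The mean was 0.56 in mixture 1 (SE 0.297; limma adjusted p = 0.156) and 0.44 in mixture 2 (SE 0.297; limma adjusted p = 0.397). The difference was 0.12 with a 95% interval of -0.83 to 1.08, which does not show that the mixtures are alike. Over both mixtures the mean was 0.50 (SE 0.21, n = 4 arrays; limma adjusted p = 0.0886). It passed only when the duplicate spots were kept as separate values (limma adjusted p = 0.0307), as did 40.8% of probes.

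DUSP5 (Entrez Gene 1847) encodes a nuclear phosphatase that removes the activating phosphates from ERK. Its ratio was 0.43 and 0.91 on the mixture 1 arrays, and -0.97 and 0.19 on the mixture 2 arrays. The arrays of mixture 2 lay on opposite sides of 0 and 1.16 apart, although the 2 spots differed by only 0.08 on each of them. The mean was 0.67 in mixture 1 (SE 0.353; limma adjusted p = 0.153) and -0.39 in mixture 2 (SE 0.353; limma adjusted p = 0.529). The mixtures differed by 1.06 (95% interval -0.08 to 2.19; limma adjusted p = 0.231). The mean of both was 0.14 (SE 0.25). DUSP5 passed in no comparison under any setting that was run.

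FOSB (Entrez Gene 2354) encodes an AP-1 subunit of the FOS family and is an immediate early gene. Its ratio was 0.30 and 0.71 on the mixture 1 arrays, and 1.04 and 0.03 on the mixture 2 arrays. All 4 values were positive, the mixtures overlapped, and the highest and the lowest value both came from mixture 2. The mean was 0.50 in mixture 1 and 0.54 in mixture 2 (SE 0.337 each; limma adjusted p = 0.25 and 0.368). Their difference was -0.03 with a 95% interval of -1.12 to 1.05. Over both mixtures its mean was 0.52 (SE 0.239; limma adjusted p = 0.113), and it passed in no comparison under any setting that was run.

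IER2 (Entrez Gene 9592) encodes a short-lived nuclear protein and is induced early after growth stimuli. Its ratio was -0.75 and 1.04 on the mixture 1 arrays, and -0.51 and -0.14 on the mixture 2 arrays. The arrays of mixture 1 lay on opposite sides and on either side of both arrays of mixture 2. The spots disagreed on each array of mixture 1, at 0.14 and -1.64 on replicate 1 and at -0.45 and 2.53 on replicate 2. The differences of 1.79 and 2.98 were at least as wide as those of 93.1% and 99.4% of probes. The mean was 0.15 in mixture 1 and -0.32 in mixture 2 (SE 0.42 each; limma adjusted p = 0.794 and 0.67). It was -0.09 over both (SE 0.297). IER2 passed in no comparison under any setting that was run.

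**Figure D3:**
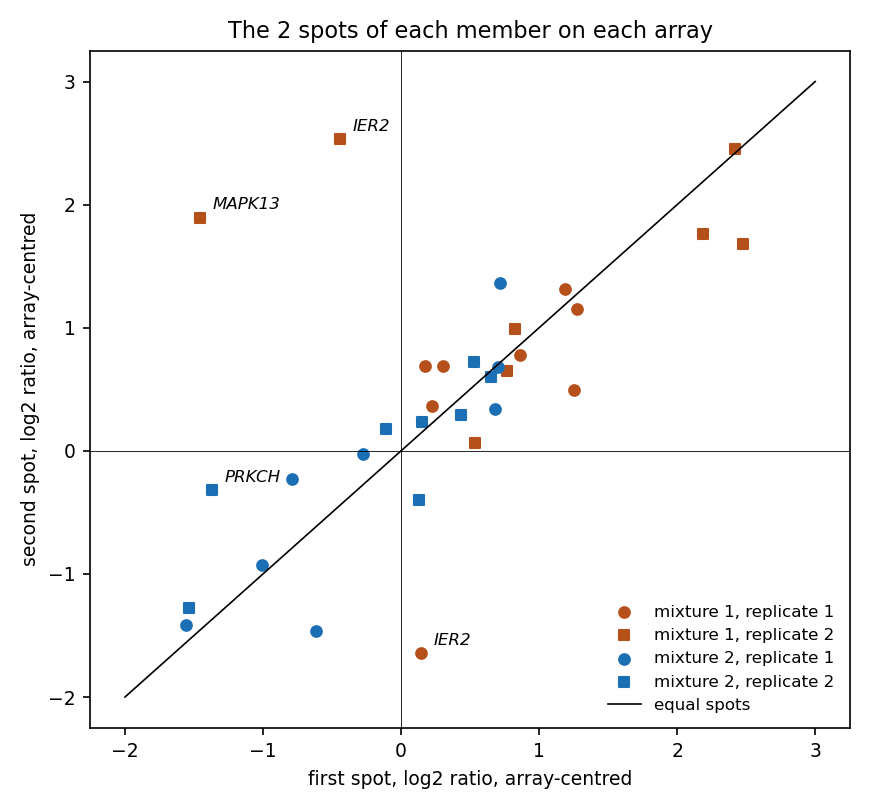
Log2 ratio of the first spot (horizontal axis) and of the second spot (vertical axis) of each of the 8 genes on each of the 4 arrays, centred on the array's median. Points on the line have equal spots. The labelled points are those whose spots differ by more than 1. They are MAPK13 on replicate 2 of mixture 1, IER2 on both arrays of mixture 1 and PRKCH on replicate 2 of mixture 2.

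Seen together, the arrays of the mixtures did not overlap for RPS6KA1, ETS2, PRKCH, MAPK13 and DUSP5, with mixture 1 above in each. Of all probes 62.2% did not overlap, and 36.2% had mixture 1 above. ETS2, MAP2K4 and FOSB had 1 sign on all 4 arrays, as did 45.7% of probes. PRKCH and MAPK13 had opposite signs in the mixtures with both arrays of each mixture alike, as did 11.5%. In the difference between the mixtures 0 of 8 genes and 0% of probes passed in limma, while 3 of the 8 genes (PRKCH, MAPK13 and RPS6KA1) and 23.9% of probes had an unadjusted p under 0.05. Both mixtures were set against RT210B, so the comparisons share their control. In mixture 1, RPS6KA1 and ETS2 were at least 2-fold on both arrays, as were 23.6% of probes.

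A wider set of 203 gene symbols was drawn up from textbook membership in the MAP kinase cascade, its phosphatases and inhibitors, the protein kinase C family, the ETS factors and the immediate early genes. It had 16 genes on the array under 1 symbol, including the 8 already described. Of the 8 others, MAPK6 and IRF1 passed in mixture 1, both on the positive side, and none passed in mixture 2 or in the difference between the mixtures. Over both mixtures MAPK6 and IRF1 passed on the positive side, as did 21.7% of all probes. MAP2K6 passed on the negative side, as did 17% of all probes. Counted with the 8 genes above, 2 of 8 cascade genes on the array passed on the positive side in mixture 1, as did 1 of 3 ETS factors, 1 of 3 immediate early genes and the only protein kinase C gene, and the only phosphatase gene did not. None of the 16 passed on the negative side in mixture 1. Of all 1152 probes, 24.4% passed there on the positive side and 216 probes on the negative side. The counts are a description and not a result about the lists. The median over the 16 genes was 0.48 in mixture 1 and 0.25 in mixture 2, beside -0.03 and -0.003 over all probes.

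MAPK6 encodes the atypical MAP kinase ERK3. Its ratio was 0.96 and 1.42 on the mixture 1 arrays, and 0.65 and 0.46 on the mixture 2 arrays, so all 4 arrays were positive. The mean was 1.19 in mixture 1 (SE 0.295, n = 2 arrays; limma adjusted p = 0.0141) and 0.87 over both mixtures (SE 0.208, n = 4 arrays; limma adjusted p = 0.0141). It did not pass without replicate 2 of mixture 1 in mixture 1 (0.96; limma adjusted p = 0.077), nor without replicate 1 of mixture 2 over both (0.82; 0.0675). With the arrays scaled to 1 spread it lay at 0.86 in mixture 1 and did not pass (limma adjusted p = 0.0544), and without centring it lay at 0.54 over both and did not pass (0.0559). With the duplicate-spot trend removed it lay at 0.96 and 0.61 and passed in neither comparison (limma adjusted p = 0.0682 and 0.104). Among probes with close duplicate spots it lay at 0.41 over both (limma adjusted p = 0.0595).

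IRF1 encodes an interferon-responsive transcription factor that is also induced early by cytokines. Its ratio was 1.17 and 1.83 on the mixture 1 arrays, and 0.80 and 0.59 on the mixture 2 arrays. The mean was 1.50 in mixture 1 (SE 0.306; limma adjusted p = 0.00899) and 1.10 over both mixtures (SE 0.216; limma adjusted p = 0.00999). With the duplicate-spot trend removed neither value passed, at 1.06 and 0.82 (limma adjusted p = 0.0577 and 0.0596).

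MAP2K6 encodes MKK6, which activates the p38 kinases. Its ratio was -0.80 and -0.51 on the mixture 1 arrays, and -0.85 and -0.64 on the mixture 2 arrays. All 4 arrays were negative, while all 4 were positive for MAP2K4, which also encodes a p38-activating kinase. The mean over both mixtures was -0.70 (SE 0.204, n = 4 arrays; limma adjusted p = 0.0264). It was -0.66 in mixture 1 and -0.75 in mixture 2 (limma adjusted p = 0.0979 and 0.249). The mean of both did not pass when replicate 1 of mixture 1 was left out (-0.63; limma adjusted p = 0.0544), nor replicate 1 (-0.65; 0.149) or replicate 2 of mixture 2 (-0.75; 0.0787), nor with the duplicate-spot trend removed (-0.59; 0.123).

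The other 5 pathway genes passed in no comparison. MAPK4, an atypical MAP kinase gene, was negative on all 4 arrays (-1.05 to -0.05). GABPA (0.27 to 0.89) and FLI1 (0.12 to 1.14), both of the ETS family, were positive on all 4 arrays. MAP3K8, the kinase gene also called TPL2 (-0.34 to 0.51), and MAPKAPK3, the gene of a p38-activated kinase (-0.27 to 0.69), had both signs.

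**Figure D4:**
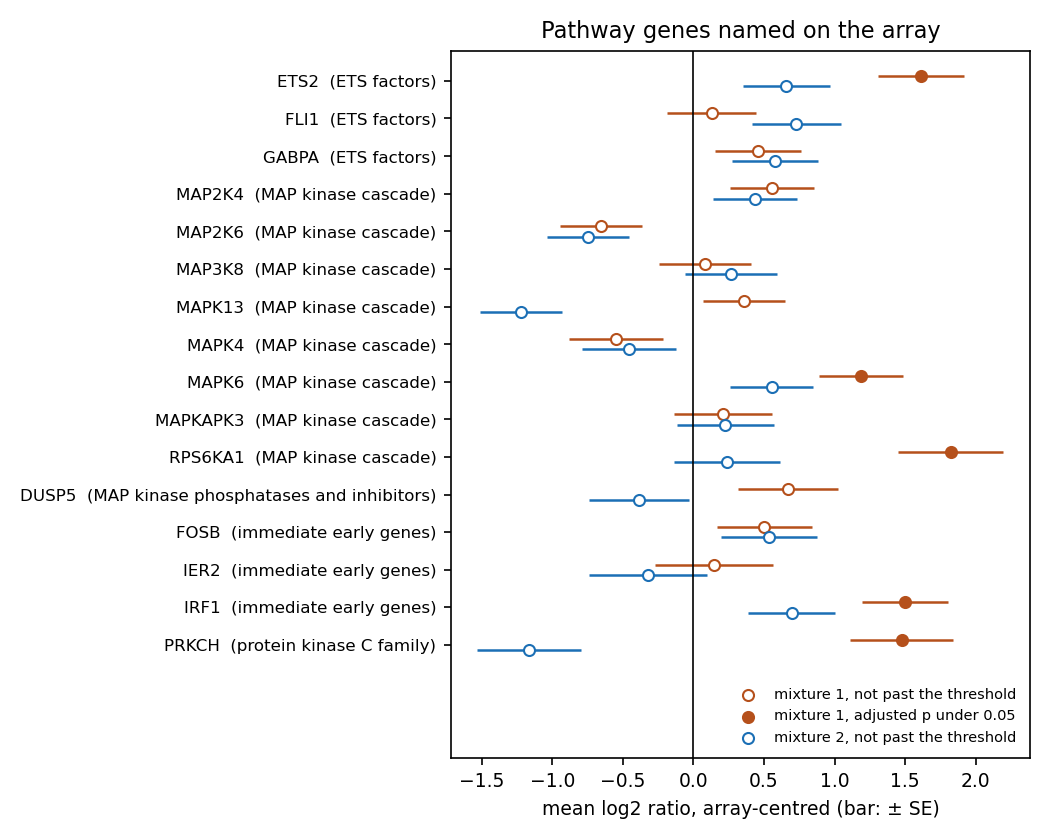
Mean log2 ratio with bars of 1 SE (horizontal axis) of the 16 pathway genes on the array (vertical axis), in mixture 1 (orange) and mixture 2 (blue), 2 arrays each. Filled circles passed in limma: RPS6KA1, ETS2, IRF1, PRKCH and MAPK6 in mixture 1, and none in mixture 2.

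For each of the 8 genes, the named probes with the most similar values were found by the root mean square difference over the 4 centred arrays. ETS2 had the closest match, with ZNF131 at 0.0661 and SMAD7 at 0.0843. For FOSB these were BARD1 (0.1) and GABPA (0.148), for MAP2K4 RBM10 (0.162) and TANK (0.171), and for DUSP5 GSTM5 (0.183) and MLANA (0.299). IER2 was nearest to PRAME (0.227) and RUNX1 (0.235), RPS6KA1 to MAT2A (0.265) and PRDM2 (0.344), PRKCH to GTF3C1 (0.254) and NTRK3 (0.397), and MAPK13 to TFAP2C (0.336) and ZNF76 (0.361). The matches of PRKCH shared its change of sign: GTF3C1 lay at 0.79 and 1.62 in mixture 1 and at -1.65 and -0.75 in mixture 2. The likeness is over 4 arrays only.

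**Figure D5:**
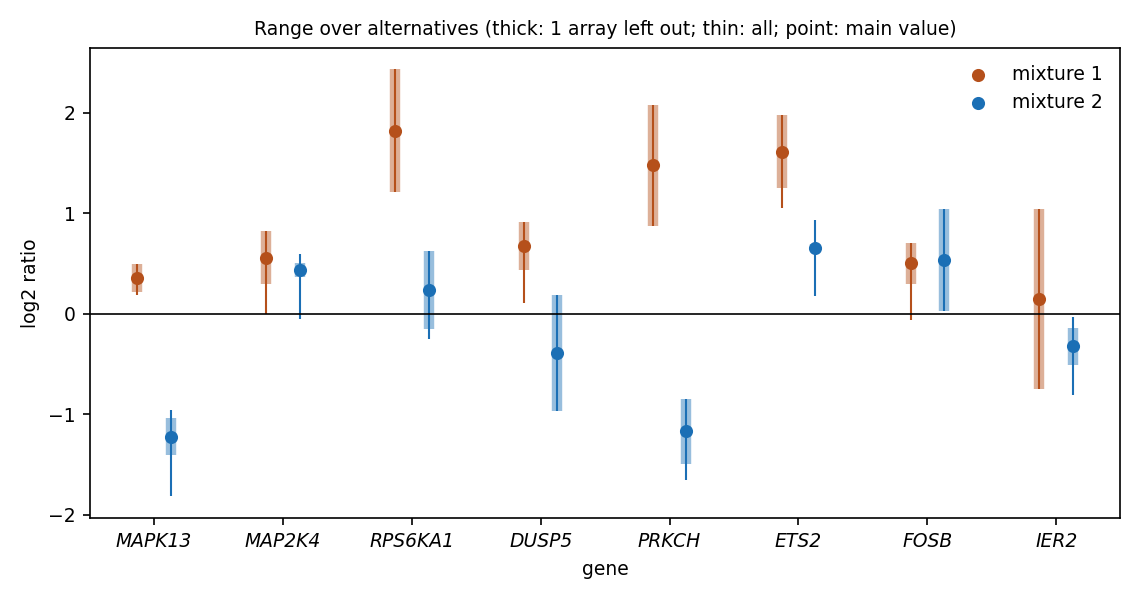
Log2 ratio of each of the 8 genes (horizontal axis) in mixture 1 (orange) and mixture 2 (blue) as reported (points), with 1 array left out (thick bars) and over every alternative setting (thin bars). ETS2 stays between 1.05 and 1.97 in mixture 1 and MAPK13 between -1.82 and -0.96 in mixture 2, while IER2 crosses 0 in mixture 1.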

How the data were processed

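The authors deposited 1 log2 ratio of the channels for each of 2304 spots on an array. Per the labels, a normalization factor of 3.8 belongs to mixture 1 replicate 2 and one of 1.169 to mixture 2 replicate 1, and what they were applied to is not given in the sources used here, nor are dyes, scanner or background correction. The log base was taken from the values: for 100% of spots, 2 to the power of the value's size fell on a whole hundredth (tolerance 0.001). Adjacent spots were averaged to 1152 probes (350 with 1 symbol, 8 with several, 794 unnamed here), and each array was centred on its median. Mixture means were tested in limma (version 3.58.1, under R 4.3.3; lmFit, eBayes) on all 4 arrays, with 2 residual and 6.69 prior degrees of freedom and Benjamini-Hochberg adjustment over all probes. RT210B counts as 1 control sample whose own spread is left out. The number of arrays limits the precision. Brightness is unknown, and how well hamster RNA binds these human-annotated probes was not measured.

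The 8 genes, the wider pathway lists and the alternatives were chosen with earlier results of these data known. The 8 genes are all named; of the wider lists, the genes past the threshold were to be named, and the rest are given for completeness; for likeness, the 2 nearest named probes. The fit was tested on simulated data. Alternatives were no centring, arrays scaled to 1 spread, each array left out, the replicate number as a block, each mixture alone, spots kept apart, probes with close duplicate spots only, removal of the lowess trend (span 0.5) of ratios on duplicate differences, and robust eBayes.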

Additional observations from a re-analysis of the deposited data

Results flagged for a closer look

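PRKCH and MAPK13 had opposite signs in the 2 mixtures, with both arrays of a mixture on the same side of 0. The PRKCH difference, mixture 1 minus mixture 2, was 2.64 (limma adjusted p = 0.0732), and the MAPK13 difference was 1.58 (limma adjusted p = 0.0938). Neither passed after Benjamini-Hochberg adjustment over all probes, and 11.5% of all probes had this pattern of signs. For MAPK13 the positive value on replicate 2 of mixture 1 is the mean of spots at -1.45 and 1.89. The part of spot disagreement in this difference was not tested. Neither gene was among the probes kept with close duplicate spots, so that setting gives no value for PRKCH or MAPK13.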

How the results depend on the processing

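Of 490 values of the 8 genes, MAPK6, IRF1 and MAP2K6 recomputed under an alternative, 416 kept their direction and their side of the threshold. Of the rest, 26 came to pass, 19 no longer passed and 29 changed sign. The replicate block, spots kept apart and robust eBayes leave each log2 value as it was, so they could change only the call. For the mean of 1 mixture, leaving out an array of the other repeats the fit of that mixture alone. The 490 values are therefore not independent checks. Of all probes, 17.7% passed in mixture 1 with the duplicate-spot trend removed and 47.2% with close duplicate spots, against 43.1% as reported. With both arrays of mixture 1 in the fit, the count of the 8 genes past the threshold there was 3, or 2 with the trend removed. Among probes with close duplicate spots the count was 2 of the 5 genes kept, PRKCH not being among them. In mixture 2 it rose from 0 to 2 without centring and on its own 2 arrays, to 3 with scaled arrays, and was 0 to 2 with 1 array left out. Over both mixtures, against 2 as reported, it was 3 without centring, with scaled arrays and with spots kept apart, 1 of the 5 genes kept with close duplicate spots, 0 with the duplicate-spot trend removed, and 1 to 2 with 1 array left out. For the difference it was 2 without centring, 1 with the replicate block and 0 to 2 with 1 array left out. The replicate numbers were not found to pair the arrays (r = -0.098 between deviations across probes), and the labels do not state a pairing. Among these genes the block changed the call of the PRKCH difference alone. Over all probes, the block left 471 calls in mixture 1, 428 over both and 36 for the difference, against 497, 446 and 0. Removing the trend left 204 in mixture 1 (67 positive, 137 negative) and 112 over both (35 and 77), against 281 and 216, and 250 and 196, in the values reported; scaling left 231 in mixture 1 and 262 in mixture 2, and without replicate 1 of mixture 2, 219 passed over both. Without centring the median over probes moved by -0.17 in mixture 1 and -0.48 in mixture 2, calls split into 232 positive and 292 negative in mixture 1, 0 and 206 in mixture 2, 124 and 434 over both, and 42 and 5 for the difference.

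Sign changes were all in values that did not pass. Without centring these were IER2 in mixture 1 (-0.023), MAP2K4 (-0.049) and RPS6KA1 (-0.25) in mixture 2, DUSP5 (-0.19) and PRKCH (-0.17) over both, and FOSB for the difference (0.28). With scaled arrays PRKCH lay at -0.24 over both and MAP2K4 at -0.20 for the difference. With close duplicate spots, with centring on the 576 probes kept, MAP2K4 lay at -0.0018 and FOSB at -0.058 in mixture 1, RPS6KA1 at -0.12 in mixture 2, DUSP5 at -0.32 over both and MAP2K4 at -0.081 for the difference. With the trend removed IER2 lay at 0.12 over both and MAP2K4 at -0.039 for the difference. With 1 array left out, IER2 ranged from -0.75 to 1.04 in mixture 1, -0.54 to 0.36 over both and -0.43 to 1.37 for the difference. DUSP5 ranged from -0.97 to 0.19 in mixture 2 and -0.15 to 0.43 over both, RPS6KA1 from -0.15 to 0.63 in mixture 2, and PRKCH from -0.15 to 0.46 over both. For the difference MAP2K4 ranged from -0.14 to 0.38, FOSB from -0.54 to 0.47 and MAP2K6 from -0.050 to 0.24. The cause of these changes was not tested.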
